A study of Mus musculus with 12 samples.

Results

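The TNF superfamily is a family of cytokine ligands and the receptors that bind them. Its genes were taken by symbol from the list of measured genes. They are all genes whose symbols start with Tnfsf or Tnfrsf followed by a digit, together with Tnf, Lta, Ltb, Ltbr, Fas, Fasl, Cd27, Cd40, Cd40lg, Cd70 and Ngfr. This gave 42 of the 21960 genes listed, 17 of them ligands and 25 receptors. Values for replicates 1 to 3 of a group are given in that order throughout.

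Gene expression was measured by RNA sequencing of 12 mammary tumors from the PyMT model. In this model the polyoma middle T oncogene is driven by the MMTV promoter in the mammary epithelium, and the mice were on a C57BL/6 background. There were 3 tumors in each of 4 groups, named IgG1 (isotype control antibody), anti-PD-1 (an antibody against the immune checkpoint receptor PD-1) and, where doxorubicin was combined with either antibody, DOX/anti-PD-1 or DOX/IgG1. The IgG1 and anti-PD-1 mice started treatment at a tumor diameter of 0.6 cm, with antibody at 20 mg/kg on the starting day and 10 mg/kg every 6 days up to day 18. Mice of the doxorubicin groups started at 1.0 cm and received doxorubicin, a topoisomerase II poison, at 5 mg/kg weekly for 5 weeks, each time followed a day later by antibody at 10 mg/kg. The sample labels give 5 weeks of treatment for all groups. All injections were intraperitoneal. Age at sampling is not given in the sources used here, and the paper does not state whether each tumor came from a different mouse. Starting diameter, schedule and first antibody dose therefore differ along with doxorubicin and cannot be told apart from it. Values are TPM, transcript shares corrected for gene length. Without read counts in the files, library depth is unknown for every tumor, and an exact 0 says only that a gene is listed at 0.

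Ligands of this family are mostly trimers on the cell surface or shed from it, and they act by clustering their receptors. Death receptors carry a cytoplasmic death domain through which caspase-8 or necroptosis can be engaged, while most other receptors bind TRAF adaptors and activate NF-kB. In the mammary gland the family is known above all for RANK (Tnfrsf11a) and its ligand, which carry the progesterone signal to epithelial progenitors, and in the immune system for costimulation of T cells and survival of B cells.

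The receptors were far more abundant than the ligands. Summed over the 25 receptors, TPM ran from 347 to 628 per tumor, against 46.1 to 94.5 for the 17 ligands. Tnfrsf1a alone made up 15.7% of the summed TPM of all members. Of the 42 members, 2 (Cd70 and Tnfrsf17) were listed at 0 in all 12 tumors, 24 were at 0 in at least 1 tumor, 17 reached 1 TPM in every tumor, and 32 reached 1 TPM in at least 3 tumors. These 32 passed the filter for testing across all 12 tumors. Because whole tumors were sequenced, fewer cells of a type and less RNA per cell cannot be told apart in any value given here.

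**Figure D1:**
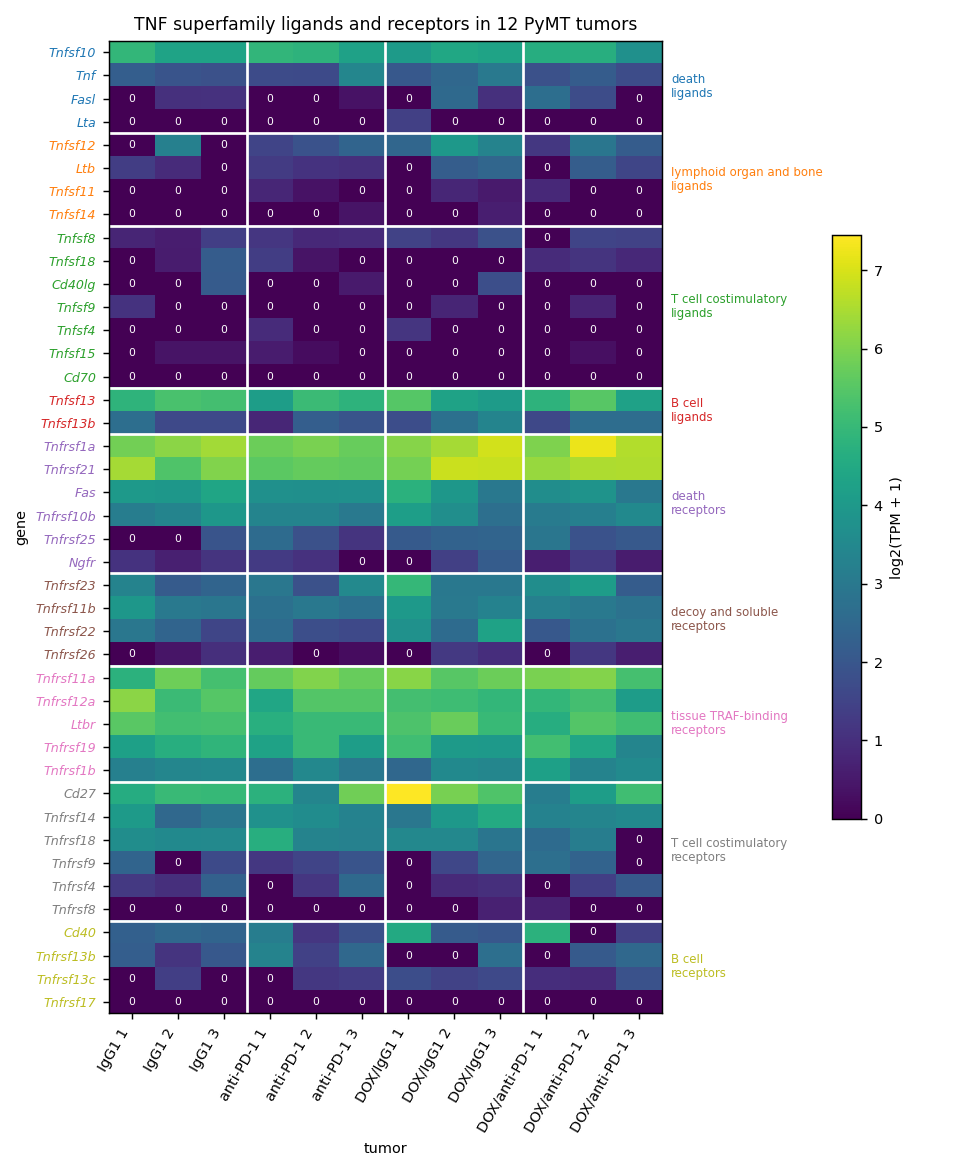
Level of each of the 42 members (y axis, grouped by role, with the label color giving the role) in each of the 12 tumors (x axis), as log2(TPM + 1); a printed 0 marks a gene listed at 0. Death receptors and tissue receptors hold most of the bright cells, and Cd27 in DOX/IgG1 replicate 1 is the brightest value of the T cell costimulatory receptors at 173 TPM.

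Of the 12 tumors, DOX/IgG1 replicate 1 stood apart, though by a small margin in correlation. Its median correlation with the other 11 tumors, over the log2(TPM + 1) of 14735 genes, was the lowest at 0.884. DOX/anti-PD-1 replicate 3 was close at 0.888, and the rest ranged from 0.901 to 0.924. DOX/IgG1 replicate 1 also had the most genes at 0 (8104, against 6534 to 7730). Genes are not independent replicates, and these correlations are descriptions. The header of its column holds the word test, which the other 11 lack, and the column headers of the 3 DOX/anti-PD-1 tumors end in 2 where the other 9 end in 1. What these marks stand for is not given in the sources used here, and the second cannot be told apart from the group. Counts of members and folds that changed most without this tumor are given both ways.

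Among the death ligands, Tnfsf10 (TRAIL, which binds Tnfrsf10b) was the most abundant in every tumor. Its level was 29.3, 19.1 and 18.8 TPM with IgG1, 29.1, 26.9 and 18.1 with anti-PD-1, 15.5, 20.5 and 19.0 with DOX/IgG1, and 23.7, 24.4 and 12.5 with DOX/anti-PD-1. These values ranged by 2.36 times from lowest to highest and the 4 groups overlapped. Tnf, the founding inflammatory cytokine of the family, was 3.69, 2.80 and 2.57 TPM with IgG1, 2.26, 2.17 and 9.71 with anti-PD-1, 3.13, 4.64 and 7 with DOX/IgG1, and 2.59, 3.45 and 2.35 with DOX/anti-PD-1. Anti-PD-1 replicate 3 had the highest value, followed by DOX/IgG1 replicate 3, and again all groups overlapped. Fasl, the ligand through which cytotoxic lymphocytes engage Fas, was listed at 0, 1.04 and 1.08 TPM with IgG1, 0, 0 and 0.29 with anti-PD-1, 0, 4.84 and 1.04 with DOX/IgG1, and 5.40, 2.31 and 0 with DOX/anti-PD-1. It was at 0 in 5 tumors spread over all 4 groups. Lta, encoding lymphotoxin alpha, was at 0 in all tumors but DOX/IgG1 replicate 1, where it read 1.66 TPM.

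The receptors with death domains included the most abundant members of the whole family. Tnfrsf1a, encoding TNF receptor type 1, the main signaling receptor for TNF, read 57.2, 69.8 and 83.6 TPM in the IgG1 tumors, 53.2, 60.2 and 51.7 in the anti-PD-1 tumors, 66.9, 85.6 and 121 in the DOX/IgG1 tumors, and 63.8, 148 and 95.7 in the DOX/anti-PD-1 tumors. Tnfrsf21 (death receptor 6) read 86.1, 41.3 and 65.1 TPM in the IgG1 tumors, 46.8, 51.0 and 48.7 in the anti-PD-1 tumors, 58.2, 114 and 113 in the DOX/IgG1 tumors, and 77.3, 91.6 and 92.6 in the DOX/anti-PD-1 tumors. For both genes all DOX/anti-PD-1 tumors lay above all anti-PD-1 tumors, whereas the DOX/IgG1 and IgG1 tumors overlapped. Fas was 15.4, 14.2 and 19.8 TPM with IgG1, 12.2, 12.0 and 12.4 with anti-PD-1, 26.1, 14.2 and 6.84 with DOX/IgG1, and 11.4, 13.1 and 6.92 with DOX/anti-PD-1. Tnfrsf10b, the mouse TRAIL receptor with a death domain, was 7.85, 9.23 and 14.5 TPM with IgG1, 9.17, 9.16 and 7.06 with anti-PD-1, 16.9, 11.69 and 5.65 with DOX/IgG1, and 7.53, 8.35 and 10.5 with DOX/anti-PD-1. Both genes had their highest value in DOX/IgG1 replicate 1 and their lowest in DOX/IgG1 replicate 3. For Fas all anti-PD-1 and all DOX/anti-PD-1 tumors lay below all IgG1 tumors, and the DOX/IgG1 tumors overlapped with every group. Tnfrsf25 (death receptor 3, a receptor of T cells) was low, with 0, 0 and 2.84 TPM in the IgG1 tumors, 5.13, 2.62 and 1.18 in the anti-PD-1 tumors, 3.31, 4.02 and 4.23 in the DOX/IgG1 tumors, and 6.58, 2.68 and 3.19 in the DOX/anti-PD-1 tumors. It was at 0 in IgG1 replicates 1 and 2 only, and all DOX/IgG1 tumors lay above all IgG1 tumors. Ngfr, the low-affinity neurotrophin receptor, stayed between 0 and 3.46 TPM.

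Decoy receptors bind ligand without passing on a death signal. Tnfrsf22 and Tnfrsf23, decoys for TRAIL in the mouse, lie next to each other and to Tnfrsf26 on chromosome 7. Tnfrsf22 was 6.71, 4.24 and 1.95 TPM with IgG1, 5.04, 2.48 and 2.15 with anti-PD-1, 12.6, 5.02 and 18.7 with DOX/IgG1, and 3.16, 5.88 and 6.68 with DOX/anti-PD-1. Tnfrsf23 was 8.96, 3.38 and 4.28 TPM with IgG1, 6.67, 2.58 and 10.3 with anti-PD-1, 29.8, 6.84 and 6.83 with DOX/IgG1, and 11.4, 16.4 and 3.53 with DOX/anti-PD-1. The highest values were in DOX/IgG1 replicate 3 for Tnfrsf22 and in DOX/IgG1 replicate 1 for Tnfrsf23, and the groups overlapped for both. These genes are close copies, and how reads common to them were assigned is unknown, which leaves each single value uncertain. Tnfrsf11b, the soluble RANK ligand decoy osteoprotegerin, was steadier at 14.5, 7.08 and 6.60 TPM with IgG1, 5.72, 6.82 and 5.74 with anti-PD-1, 15.1, 7.04 and 8.86 with DOX/IgG1, and 8.5, 7.02 and 5.94 with DOX/anti-PD-1. Only IgG1 replicate 1 and DOX/IgG1 replicate 1 exceeded 10 TPM. Tnfrsf26 was at 1.35 TPM or below in every tumor.

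All 5 tissue receptors that signal through TRAF adaptors reached 1 TPM in every tumor. RANK (Tnfrsf11a) had the highest mean of them, 51.4 TPM, with 26.7, 55.3 and 37.0 TPM in the IgG1 tumors, 50.3, 64.9 and 51.1 in the anti-PD-1 tumors, 68.5, 44.7 and 54.1 in the DOX/IgG1 tumors, and 61.1, 65.9 and 37.3 in the DOX/anti-PD-1 tumors. The lowest value was in IgG1 replicate 1, and the groups overlapped. Tnfrsf12a (Fn14, the receptor for TWEAK) was 70.5, 32.8 and 44.1 TPM with IgG1, 20.0, 42.7 and 42.8 with anti-PD-1, 36.1, 34.4 and 29.7 with DOX/IgG1, and 29.7, 36.3 and 16.5 with DOX/anti-PD-1. IgG1 replicate 1 was highest and DOX/anti-PD-1 replicate 3 lowest. Ltbr, the lymphotoxin beta receptor, varied least of the members that were never at 0, by 2.21 times, with 45.7, 35.4 and 37.0 TPM in the IgG1 tumors, 25.0, 32.0 and 32.0 in the anti-PD-1 tumors, 40.5, 52.6 and 31.1 in the DOX/IgG1 tumors, and 23.9, 43.0 and 34.6 in the DOX/anti-PD-1 tumors. All anti-PD-1 tumors lay below all IgG1 tumors, while the doxorubicin groups overlapped with each other. Tnfrsf1b, the second TNF receptor, was 8.49, 9.67 and 10.0 TPM with IgG1, 5.45, 10.0 and 6.67 with anti-PD-1, 4.65, 10.7 and 9.69 with DOX/IgG1, and 17.8, 9.06 and 10.8 with DOX/anti-PD-1. Its groups overlapped. Tnfrsf19, a receptor of epithelial and neural progenitors, ranged from 9.46 to 35.3 TPM.

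Ligands of the lymphoid and bone branch were scarce. Tnfsf12 (TWEAK) was 0, 8.55 and 0 TPM with IgG1, 1.86, 2.69 and 4.25 with anti-PD-1, 4.44, 14.7 and 9.01 with DOX/IgG1, and 1.32, 6.53 and 3.48 with DOX/anti-PD-1. It was at 0 in IgG1 replicates 1 and 3 only, and the highest value was in DOX/IgG1 replicate 2. Ltb, encoding lymphotoxin beta, was 1.54, 0.89 and 0 TPM with IgG1, 1.44, 1.11 and 1.00 with anti-PD-1, 0, 3.59 and 4.47 with DOX/IgG1, and 0, 3.55 and 1.96 with DOX/anti-PD-1. Tnfsf11 (RANK ligand) was listed at 0, 0 and 0 TPM with IgG1, 0.73, 0.28 and 0 with anti-PD-1, 0, 0.74 and 0.45 with DOX/IgG1, and 0.83, 0 and 0 with DOX/anti-PD-1, so it stayed under 1 TPM in all 12 tumors and at 0 in all 3 IgG1 tumors. Tnfsf14, a ligand of Tnfrsf14 and Ltbr, was at 0 in all tumors but anti-PD-1 replicate 3 (0.30 TPM) and DOX/IgG1 replicate 3 (0.54 TPM).

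The costimulatory ligands of antigen-presenting cells and T cells had the lowest median sum of all roles over the 12 tumors, 2.28 TPM. The ligands of the lymphoid and bone branch summed lower in IgG1 replicates 1 and 3 and anti-PD-1 replicate 1. Tnfsf8 (CD30 ligand) was 0.69, 0.52 and 1.62 TPM with IgG1, 1.26, 0.81 and 0.87 with anti-PD-1, 1.75, 1.29 and 2.60 with DOX/IgG1, and 0, 1.86 and 1.75 with DOX/anti-PD-1. Tnfsf18, the ligand of GITR, was 0, 0.49 and 3.53 TPM with IgG1, 1.57, 0.30 and 0 with anti-PD-1, 0, 0 and 0 with DOX/IgG1, and 0.90, 1.16 and 0.82 with DOX/anti-PD-1, with all 3 DOX/IgG1 tumors at 0. The others were mostly listed at 0. Cd40lg, the T cell signal to B cells and dendritic cells, was above 0 in IgG1 replicate 3 (3.42 TPM), anti-PD-1 replicate 3 (0.46 TPM) and DOX/IgG1 replicate 3 (2.48 TPM) only. Tnfsf9 was above 0 in IgG1 replicate 1 (1.11 TPM), DOX/IgG1 replicate 2 (0.70 TPM) and DOX/anti-PD-1 replicate 2 (0.67 TPM), and Tnfsf4, the OX40 ligand, in anti-PD-1 replicate 1 (0.89 TPM) and DOX/IgG1 replicate 1 (1.23 TPM). Tnfsf15, the ligand of death receptor 3, did not exceed 0.48 TPM, and Cd70, the only known ligand of Cd27, was at 0 throughout.

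The T cell costimulatory receptors were more abundant as a list, led by Cd27, which supports the survival of primed T cells and is also carried by NK cells. Which cells carried them in these tumors was not measured. Cd27 read 23.6, 32.2 and 30.7 TPM in the IgG1 tumors, 26.5, 9.40 and 56.3 in the anti-PD-1 tumors, 173, 59.5 and 40.8 in the DOX/IgG1 tumors, and 7.92, 16.6 and 34.6 in the DOX/anti-PD-1 tumors. It had the widest range of the members never at 0, 21.9 times, and its highest value by far was in DOX/IgG1 replicate 1. All DOX/IgG1 tumors lay above all IgG1 and all DOX/anti-PD-1 tumors. Tnfrsf14, a receptor for LIGHT, was 15.6, 4.74 and 6.53 TPM with IgG1, 12.7, 11.3 and 8.81 with anti-PD-1, 6.79, 14.8 and 22.5 with DOX/IgG1, and 8.82, 9.40 and 10.6 with DOX/anti-PD-1. Tnfrsf18 (GITR, a receptor that is high on regulatory and activated T cells) read 11.5, 10.5 and 10.4 TPM in the IgG1 tumors, 24.7, 9.09 and 8.61 in the anti-PD-1 tumors, 10.0, 10.1 and 6.48 in the DOX/IgG1 tumors, and 5.10, 7.90 and 0 in the DOX/anti-PD-1 tumors. Every tumor with doxorubicin lay below every tumor without it that had the same antibody, and DOX/anti-PD-1 replicate 3 was at 0. Tnfrsf9 (CD137) was 4.25, 0 and 2.16 TPM with IgG1, 1.3, 1.88 and 2.80 with anti-PD-1, 0, 2 and 4.54 with DOX/IgG1, and 5.59, 4.14 and 0 with DOX/anti-PD-1. Tnfrsf4 (OX40) was 1.34, 1.02 and 3.96 TPM with IgG1, 0, 1.26 and 4.80 with anti-PD-1, 0, 0.84 and 1.02 with DOX/IgG1, and 0, 1.61 and 3.20 with DOX/anti-PD-1. Both were at 0 in 3 tumors and their groups overlapped. Tnfrsf8 (CD30) was at 0 in all but DOX/IgG1 replicate 3 (0.61 TPM) and DOX/anti-PD-1 replicate 1 (0.57 TPM).

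In the B cell branch, the summed ligands exceeded the summed receptors in every tumor, and Tnfsf13 made up 88.1% of the ligand sum. Tnfsf13 (APRIL) had the highest mean of the ligands over the 12 tumors (29.0 TPM, against 21.4 TPM for Tnfsf10), with 27.6, 38.9 and 36.5 TPM in the IgG1 tumors, 16.8, 32.5 and 27.3 in the anti-PD-1 tumors, 43.7, 18.7 and 16.04 in the DOX/IgG1 tumors, and 27.2, 45 and 18.0 in the DOX/anti-PD-1 tumors. The groups overlapped. Tnfsf13b (BAFF, a survival factor for B cells) was 5.47, 2.15 and 2.12 TPM with IgG1, 0.73, 3.71 and 2.83 with anti-PD-1, 2.40, 5.66 and 9.33 with DOX/IgG1, and 2.05, 5.33 and 5.27 with DOX/anti-PD-1. Of the receptors, Cd40, which B cells share with dendritic cells and macrophages, was 3.83, 4.76 and 4.26 TPM with IgG1, 7.91, 1.28 and 2.53 with anti-PD-1, 21.97, 3.41 and 3.06 with DOX/IgG1, and 26.6, 0 and 1.65 with DOX/anti-PD-1. A single tumor in each doxorubicin group, replicate 1, was far above the rest. Tnfrsf13b (TACI) was 3.67, 1.17 and 3.16 TPM with IgG1, 8.99, 1.73 and 4.67 with anti-PD-1, 0, 0 and 5.57 with DOX/IgG1, and 0, 3.35 and 4.68 with DOX/anti-PD-1. Tnfrsf13c (the BAFF receptor) was 0, 1.59 and 0 TPM with IgG1, 0, 1.32 and 1.48 with anti-PD-1, 2.37, 1.76 and 2.12 with DOX/IgG1, and 0.98, 0.84 and 2.67 with DOX/anti-PD-1. Tnfrsf17, the plasma cell receptor BCMA, was at 0 throughout.

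When 16 chosen ligand and receptor pairs were set side by side, the receptor had the higher TPM in all 12 tumors in 7 pairs and the ligand in 2 (Tnfsf13b over Tnfrsf13c and over Tnfrsf17). The choice holds no pair of Tnfsf13, the ligand with the highest mean, or of Lta, Tnfsf8, Tnfsf14 or Tnfsf15. The tally therefore describes these pairs and not the family. Only 3 pairs had both partners at 1 TPM or more in all tumors, namely Tnf with Tnfrsf1a, Tnf with Tnfrsf1b, and Tnfsf10 with Tnfrsf10b. In the last pair the ligand exceeded the receptor in 11 tumors. In 5 pairs no tumor had both at 1 TPM, among them RANK with RANK ligand, where the receptor median was 52.6 TPM and the ligand median 0 TPM, and Cd27 (median 31.4 TPM) with Cd70.

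**Figure D2:**
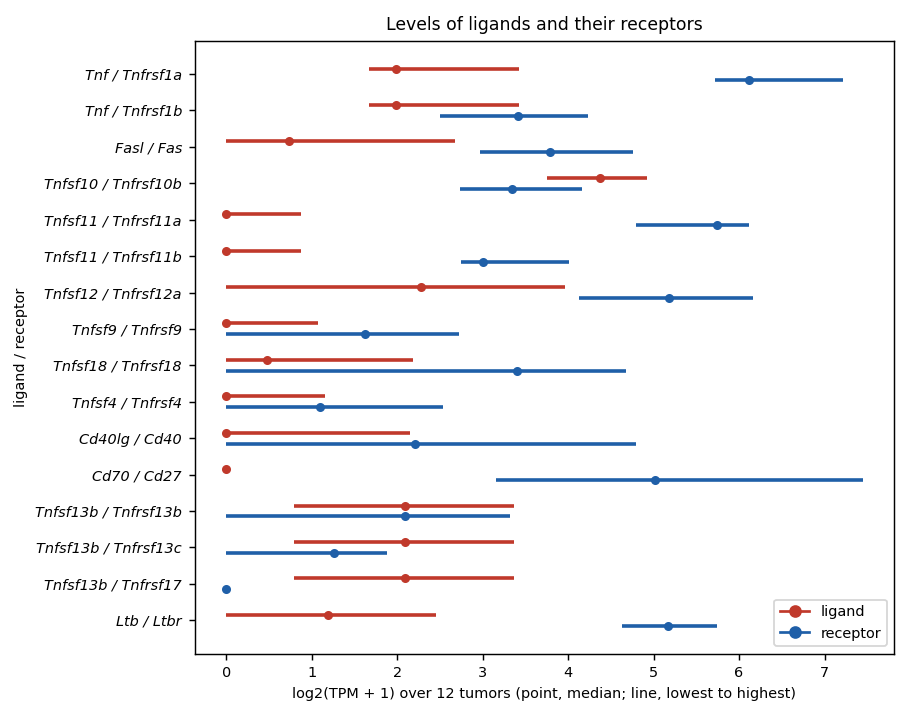
Ligand (red) and receptor (blue) levels for 16 pairs as log2(TPM + 1), with the point at the median and the line from the lowest to the highest of 12 tumors. The lines of ligand and receptor do not meet for Tnf and Tnfrsf1a, where the ligand reached 9.71 TPM and the receptor started at 51.7 TPM.

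The members lie on 14 chromosomes, with 9 on chromosome 4 and 8 on chromosome 17. Exons of 7 members overlap exons of another gene in the annotation (GENCODE vM21, GRCm38). The overlap is largest for the neighbors Tnfsf12 (chr11:69686250-69695849, minus strand) and Tnfsf13 (chr11:69682846-69685784, minus strand). Their readthrough gene Tnfsfm13, which the symbol rule does not take and which was looked at after this overlap was seen, shares 48.3% of the Tnfsf12 and 60.1% of the Tnfsf13 exon bases. Tnfsfm13 was listed at 2.31 to 14.1 TPM, so the split of reads among the 3 genes makes their separate values uncertain. For Tnfrsf18 (chr4:156026164-156028895, plus strand), 27.2% of exon bases lie opposite the antisense gene Gm16008, which has no value in the files. The library kit keeps strand, but whether the counting used it is not stated. Cd27 shares 5.54% of its exon bases with the microRNA gene Mir8113 on the same strand, which has no value in the files. Cd27 (chr6:125232622-125237010, minus strand), Tnfrsf1a (chr6:125349362-125362484, plus strand), Tnfrsf21 (chr17:43016555-43089189, plus strand) and Tnfrsf25 (chr4:152115934-152120119, plus strand) share no exon bases with another listed gene.

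Treatment effects were compared with limma on log2(TPM + 1), a scale that understates the change of genes at low TPM. Genes were called at an adjusted p below 0.1 with an absolute log2 fold change above 1. The question for doxorubicin was whether tumors treated with it differed from tumors given the same antibody alone. In DOX/IgG1 against IgG1, limma called 0 of 30 members tested, beside 0.036% of all 13874 genes tested, and 3 members had an unadjusted p below 0.05. All 3 were higher, against 5.03% of all genes higher and 2.7% lower at that limit. This count was 6 without DOX/IgG1 replicate 1, where all genes called went from 5 to 122 and 13% of all genes had an unadjusted p below 0.05 in either direction. It was 1 without IgG1 replicate 1 (6.95% of all genes) and 1 with a stricter minimum for testing (7.93%). In DOX/anti-PD-1 against anti-PD-1, limma called 0 of 29 members and 0% of 13736 genes, and at an unadjusted p below 0.05 there were 2 members higher (6.3% of all genes) and 1 lower (2.33%). Without anti-PD-1 replicate 1 these 3 became 1, beside 7.4% of all genes in either direction. With all tumors these shares are near the background, so the counts are not a result about the family.

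The groups did not overlap for 3 members that were higher in DOX/IgG1 than in IgG1 (Cd27, Tnfrsf25 and Tnfrsf13c, beside 9.31% of all genes) and 1 that was lower (Tnfrsf18, beside 4.64%). In DOX/anti-PD-1 against anti-PD-1 there were 2 higher (Tnfrsf1a and Tnfrsf21, beside 11.1%) and 1 lower (Tnfrsf18, beside 3.84%). Of the members tested, 21 were higher and 9 lower in DOX/IgG1, with a median log2 fold change of 0.42 against 0.12 over all genes. Without DOX/IgG1 replicate 3 this median was 0.26 against 0.11. In the anti-PD-1 arm 18 were higher and 11 lower, with a median of 0.05 against 0.11 over all genes. Scaling the tumors by the median of ratios moved the median of all genes by -0.10 and -0.11. After scaling the members' median was 0.32 against 0.02 over all genes in the IgG1 arm. With the stricter minimum, which leaves 19 members, it was 0.14 against 0.11, so there the shift of the family beyond that of all genes nearly vanished. In the anti-PD-1 arm it went from 0.05 to -0.02 with scaling, so its sign flips, and it was below the median of all genes before and after (0.11 and -0.0048). With a tumor left out it ran from -0.18 (without DOX/anti-PD-1 replicate 2) to 0.13 (without DOX/anti-PD-1 replicate 1). It was above the median of all genes without anti-PD-1 replicate 2 (0.107 against 0.099) or DOX/anti-PD-1 replicate 3 (0.133 against 0.129), and below it in the other leave-outs.

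Averaging both arms set 6 tumors with doxorubicin against 6 without. limma called 0 of 32 members, beside 0.0882% of 14735 genes, and 5 members had an unadjusted p below 0.05, 4 of them higher (8.69% of all genes) and 1 lower (3.19%). Without DOX/IgG1 replicate 1 there were 8, beside 15.4% of all genes in either direction and 301 genes called against 13. Without IgG1 replicate 1 there were 3 (10.1% of all genes). The 4 higher ones were 3 death receptors and a decoy receptor, Tnfrsf21, Tnfrsf1a, Tnfrsf25 and Tnfrsf22, and the lower one was Tnfrsf18. Of the 32 members, 23 were higher and 9 lower, and 19 lay above the median of all genes. That median was 0.12 and the members' median 0.23, or 0.13 against 0.02 after scaling.

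**Figure D3:**
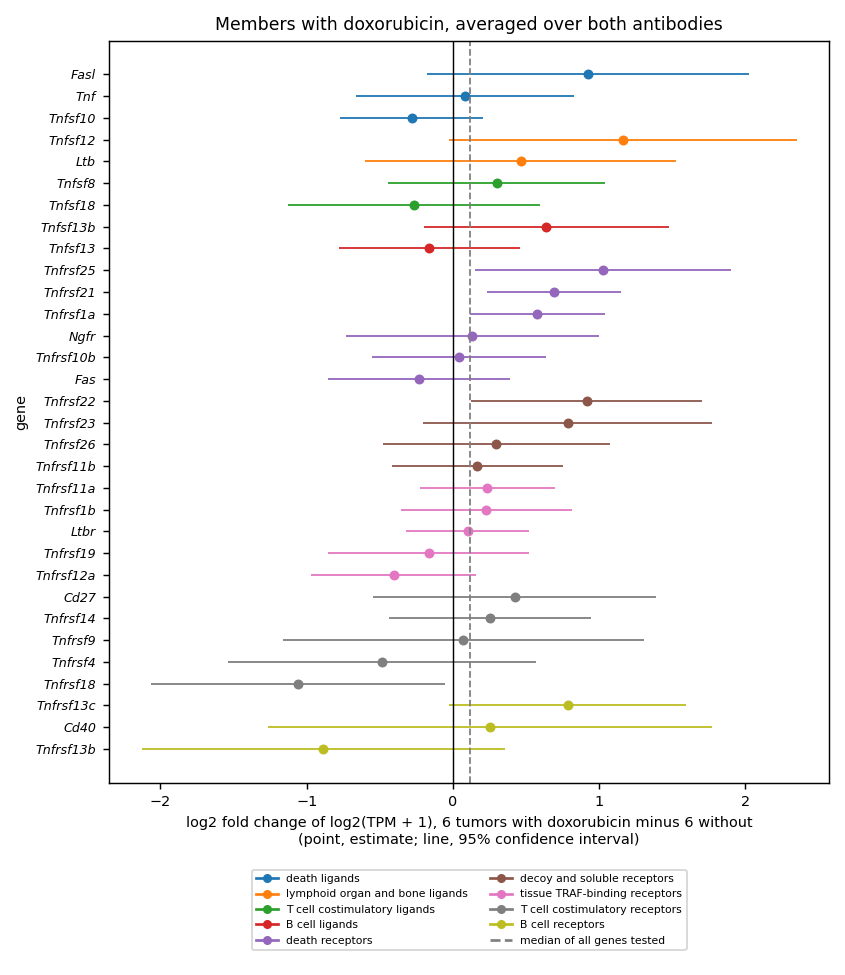
Log2 fold change (x axis, on the log2(TPM + 1) scale) of the 32 members tested, 6 tumors with doxorubicin minus 6 without, with the line giving the 95% confidence interval and the dashed line the median of all genes tested. Only Tnfrsf25, Tnfrsf21, Tnfrsf1a and Tnfrsf22 have intervals wholly above 0 and only Tnfrsf18 has one wholly below, and none of the 5 passed the adjusted limit.

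Tnfrsf21 gave the smallest p. Its level was 0.82 ± 0.21 (SE) log2 units higher in DOX/anti-PD-1 tumors than with anti-PD-1 alone (95% interval 0.35 to 1.29), in all 3 tumors against all 3, with p = 0.00321 by limma, adjusted p = 0.479, and an exact two-sided permutation p of 0.1, the smallest that 3 against 3 allows. In the IgG1 arm the difference was 0.56 ± 0.36, from 0.28 without IgG1 replicate 2 to 0.88 without DOX/IgG1 replicate 1. The average over both arms was 0.69 ± 0.21, with an adjusted p of 0.261 by limma and an exact permutation p of 0.015 within arms, where 400 arrangements allow 0.005 at the least. Without DOX/IgG1 replicate 1 the average was 0.85 with an adjusted p of 0.0548 by limma, the smallest over its alternatives, which is below the limit for p but not above that for size.

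Tnfrsf1a was 0.80 ± 0.30 higher in DOX/anti-PD-1 tumors than with anti-PD-1 alone, with all 3 tumors above all 3 (limma adjusted p = 0.532, exact permutation p = 0.1). In DOX/IgG1 it was 0.35 ± 0.28 higher and the groups overlapped. Leaving out DOX/anti-PD-1 replicate 2, the highest tumor, gave 0.50 in the anti-PD-1 arm. Leaving out DOX/IgG1 replicate 3 gave 0.12 in the other arm, and leaving out DOX/IgG1 replicate 1 gave 0.55. The average was 0.58 ± 0.21 (limma adjusted p = 0.324, exact permutation p = 0.035).

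Tnfrsf25 was 1.63 ± 0.62 higher in DOX/IgG1 than in IgG1 (limma adjusted p = 0.591, exact permutation p = 0.1). This fold rests on 2 IgG1 tumors at 0 and read 3.67 with a pseudocount of 0.1. In the anti-PD-1 arm the difference was 0.42 ± 0.51, from 0.054 without anti-PD-1 replicate 3 to 0.80 without anti-PD-1 replicate 1. The average was 1.03 ± 0.41 (limma adjusted p = 0.35, exact permutation p = 0.065). Tnfrsf22 averaged 0.91 ± 0.37 higher with doxorubicin (limma adjusted p = 0.354, exact permutation p = 0.04), made up of 1.25 ± 0.56 in the IgG1 arm and 0.58 ± 0.45 in the anti-PD-1 arm. Its neighbor Tnfrsf23 averaged 0.78 ± 0.46.

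Tnfrsf18 showed the lower values with doxorubicin in both arms. In DOX/anti-PD-1 it was -1.84 ± 0.78 relative to anti-PD-1 (limma adjusted p = 0.562, exact permutation p = 0.1), or -2.97 with a pseudocount of 0.1, and in DOX/IgG1 -0.28 ± 0.34 relative to IgG1, or -0.089 without DOX/IgG1 replicate 3. On average this was -1.06 ± 0.47 (limma adjusted p = 0.399). The exact permutation p was 0.005, the smallest possible, since all 6 tumors with doxorubicin lay below those without in the same arm. It is not adjusted for the number of members tested. In the IgG1 arm the gap was narrow, from 10.1 TPM at the highest with doxorubicin to 10.4 TPM at the lowest without. Leaving out DOX/anti-PD-1 replicate 3, which was at 0, gave -0.88 in the anti-PD-1 arm and -0.58 on average. Regulatory T cell markers (5 genes, most abundant Ikzf2) summed to 16.3, 14.7 and 30.4 TPM in the IgG1 tumors, 23.3, 20.1 and 14.6 in the anti-PD-1 tumors, 3.65, 22.04 and 32.0 in the DOX/IgG1 tumors, and 14.8, 18.6 and 18.8 in the DOX/anti-PD-1 tumors. Ikzf2 carried most of each sum (mean 13.9 TPM), while Foxp3 did not exceed 2.69 TPM. Of 4 markers tested, limma called 0 on average with doxorubicin, 0 had an unadjusted p below 0.05 (11.9% of all genes), and all 4 were lower. Their part in the Tnfrsf18 values was not tested.

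Cd27 was 1.36 ± 0.48 higher in DOX/IgG1 than in IgG1 (limma adjusted p = 0.56, exact permutation p = 0.1), or 0.76 without DOX/IgG1 replicate 1. In the anti-PD-1 arm it was -0.52 ± 0.65, and 0.07 without anti-PD-1 replicate 3, so no direction held there. DOX/IgG1 replicate 1, where Cd27 was 173 TPM, had 17.8 TPM summed over 12 T cell markers and 9.96 TPM over 9 NK cell markers. DOX/IgG1 replicates 2 and 3 had 66.9 and 55.8 TPM of T cell markers and 57.2 and 54.3 TPM of NK cell markers. Cd27 alone exceeded the sum of the T cell markers in DOX/IgG1 replicate 1, IgG1 replicate 3 and anti-PD-1 replicates 1 and 3. It lay below that sum in all other tumors. The part of these cells in the Cd27 values was not tested.

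Tnfsf12 was 2.16 ± 0.88 higher in DOX/IgG1 than in IgG1 (limma adjusted p = 0.619, exact permutation p = 0.2), a fold that rests on 2 IgG1 tumors at 0. It read 4.26 with a pseudocount of 0.1, 3.25 without IgG1 replicate 2 and 1.62 without IgG1 replicate 1. In the anti-PD-1 arm it was 0.17 ± 0.53, and -0.24 without DOX/anti-PD-1 replicate 2.

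**Figure D4:**
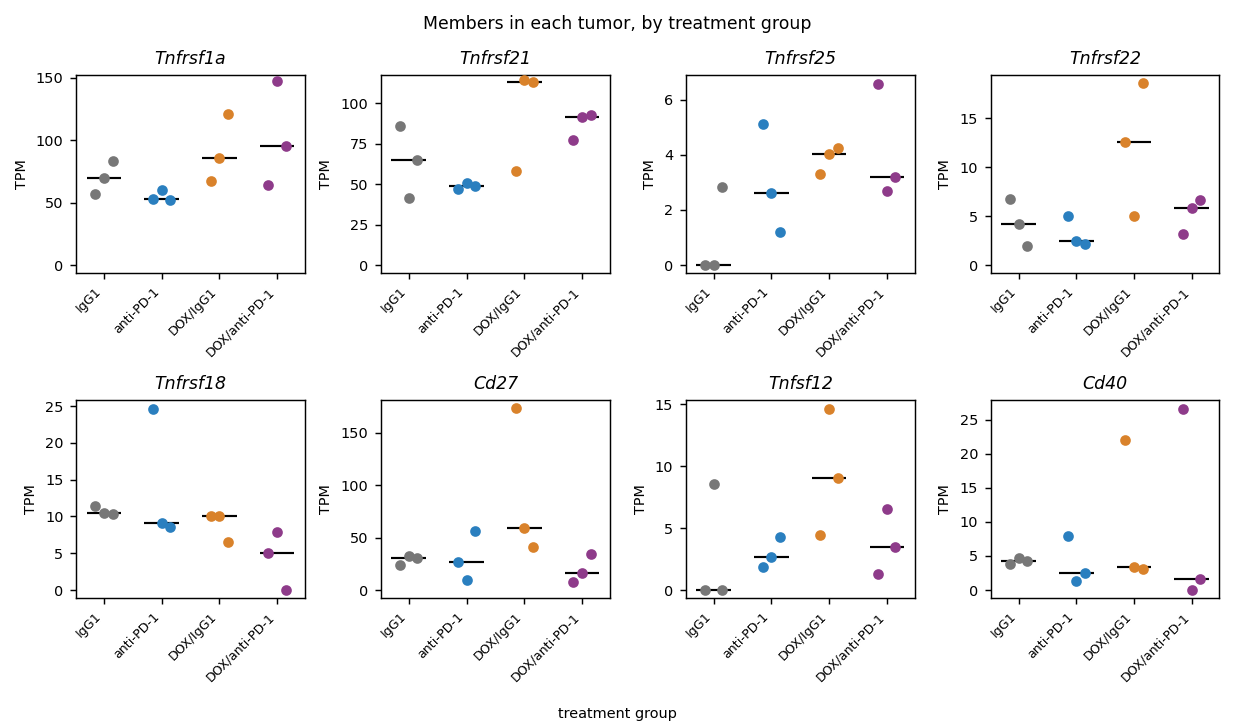
TPM of 8 members in each tumor (points) by treatment group (x axis, 3 tumors each), with a bar at the group median. Tnfrsf1a and Tnfrsf21 part DOX/anti-PD-1 from anti-PD-1, while the highest Cd27 and Cd40 values in DOX/IgG1 come from a single tumor each.

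Since 3 death receptors had an unadjusted p below 0.05 on average with doxorubicin, their RefSeq promoter windows (GRCm38.p6, 300 bases each, of which the last 50 follow the start) are shown. The windows are Tnfrsf1a at chr6:125349473-125349772, Tnfrsf21 at chr17:43016305-43016604 and Tnfrsf25 at chr4:152115684-152115983, all on the plus strand. Capitals mark matches, on either strand, to CCGGAAG (the core bound by ETS factors), GGGCGG (GC box) or the p53 half-site.
Tnfrsf1a: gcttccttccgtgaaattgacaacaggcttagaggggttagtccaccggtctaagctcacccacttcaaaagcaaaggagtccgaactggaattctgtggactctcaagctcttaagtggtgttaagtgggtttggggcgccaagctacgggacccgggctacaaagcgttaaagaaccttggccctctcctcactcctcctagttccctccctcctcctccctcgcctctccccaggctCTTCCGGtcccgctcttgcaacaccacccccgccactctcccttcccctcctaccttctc
Tnfrsf21: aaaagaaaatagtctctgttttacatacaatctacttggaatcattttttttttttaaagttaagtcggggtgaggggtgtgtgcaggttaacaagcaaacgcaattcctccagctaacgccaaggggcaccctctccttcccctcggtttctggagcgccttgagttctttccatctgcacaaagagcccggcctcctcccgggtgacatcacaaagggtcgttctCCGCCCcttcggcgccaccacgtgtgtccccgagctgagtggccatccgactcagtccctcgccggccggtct
Tnfrsf25: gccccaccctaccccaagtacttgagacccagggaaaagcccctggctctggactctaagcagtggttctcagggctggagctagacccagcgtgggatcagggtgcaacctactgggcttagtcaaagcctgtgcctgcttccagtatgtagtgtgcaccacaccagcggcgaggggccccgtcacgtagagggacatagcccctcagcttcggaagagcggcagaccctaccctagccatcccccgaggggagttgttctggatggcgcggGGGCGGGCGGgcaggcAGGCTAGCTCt
In Tnfrsf1a the capitals are an ETS core on the minus strand, from base -10 to -4 of the start. In Tnfrsf21 they are a GC box on the minus strand, from -23 to -18. In Tnfrsf25 they are 2 overlapping GC boxes, from 23 to 28 and from 27 to 32, and a p53 half-site from 39 to 48. None of the 3 windows shown holds the NF-kB consensus or TATAAA, and a further Tnfrsf25 window, not shown, holds the NF-kB consensus.

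RefSeq windows were found for 32 of the 42 members. The NF-kB consensus occurred for 4 of them (Ltb, Tnfrsf25, Tnfrsf8 and Tnfrsf9), beside 8.46% of all 32851 windows. The p53 half-site occurred for 3 (8.36% of all windows), CCGGAAG for 3 (8.86%), TATAAA for 6 (13.6%) and GGGCGG for 17 (35.7%). These counts are of members, which have 36 windows, while the shares are of windows. By window the p53 half-site occurred in 4 of the 36, and the other counts were the same. A match describes letters only, and nothing was measured on binding.

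For anti-PD-1 the question was whether tumors given the antibody differed from those given IgG1. The comparisons share tumors with those above, so their values are set side by side only. In anti-PD-1 against IgG1, limma called 0 of 28 members and 0% of 13692 genes. At an unadjusted p below 0.05 there were 0 members (4.6% of all genes), or 2 without IgG1 replicate 2 (4.95%). All anti-PD-1 tumors lay below all IgG1 tumors for 2 members, Ltbr at -0.40 and Fas at -0.39 log2 units, beside 9.88% of all genes that did not overlap in either direction. The smallest adjusted p of a member by limma was 0.996. Of the members tested, 12 were higher and 16 lower.

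When the 2 doxorubicin groups were compared, DOX/anti-PD-1 minus DOX/IgG1, limma called 0 of 30 members and 0% of 13946 genes, and 1 member had an unadjusted p below 0.05, against 4.7% of all genes. It was 3 members without DOX/IgG1 replicate 1 (7.54% of all genes) and 2 with no minimum for testing (4.48%). The 1 member was Cd27, at -2.10 ± 0.62 (limma adjusted p = 0.988, exact permutation p = 0.1), or -1.50 without DOX/IgG1 replicate 1. It was also the 1 member whose groups did not overlap, beside 10.2% of all genes. Of the 30 members, 9 were higher and 21 lower, with a median of -0.31 against -0.04 over all genes. Without DOX/IgG1 replicate 3 this median was -0.18 against -0.02. Averaged over both arms, limma called 0 of 32 members (0.00679% of all genes), and 1 had an unadjusted p below 0.05 (4.77%), again Cd27 at -1.16 ± 0.45 (limma adjusted p = 0.974, exact permutation p = 0.095). Without DOX/IgG1 replicate 1 it was -0.86 and 0 members were below 0.05, beside 7.06% of all genes.

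The interaction asks whether the change with doxorubicin differs between antibodies. limma called 0 of 32 members, beside 0.00679% of all genes, and 0 members had an unadjusted p below 0.05, against 4.71% of all genes. Without DOX/IgG1 replicate 1 there were 2 (6.45% of all genes), and with replicate number as a block there was 1 (4.99%). The smallest was that of Cd27, at -1.88 ± 0.90 (limma adjusted p = 0.993). For Tnfrsf18 the interaction was -1.56 ± 0.94 and for Tnfrsf21 0.26 ± 0.43, both with a limma adjusted p of 0.993, so no difference between the arms was shown for either.

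A few relatives of the family are not taken by the symbol rule. Of Eda, Edar, Eda2r, Edaradd and Relt, 4 were tested in the average of both arms, limma called 0 of them, and 2 were higher at an unadjusted p below 0.05, beside 8.69% of all genes. Eda2r, the ectodysplasin A2 receptor and a p53 target, was 2.94, 4.81 and 9.59 TPM with IgG1, 4.6, 2.94 and 10.2 with anti-PD-1, 34.4, 10.1 and 10.5 with DOX/IgG1, and 5.09, 8.19 and 16.2 with DOX/anti-PD-1. DOX/IgG1 replicate 1 was the highest, and all DOX/IgG1 tumors lay above all IgG1 tumors. Eda2r averaged 1.03 ± 0.41 higher (limma adjusted p = 0.35) and Relt 1.05 ± 0.42 (limma adjusted p = 0.353), followed by Eda, the ligand ectodysplasin, at 0.46 ± 0.35 (limma adjusted p = 0.647).

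Downstream of the receptors, 31 adaptors with TRAF or death domain functions were all tested. With doxorubicin on average, 28 were higher and 3 lower, with a median of 0.19 against 0.12 over all genes. Over all genes, 9332 of 14735 were higher. limma called 0 adaptors, and 5 had an unadjusted p below 0.05, all higher, beside 8.69% of all genes. The smallest was for Rnf31, the catalytic subunit of the linear ubiquitin ligase that stabilizes the TNF receptor complex, with 27.9, 22.7 and 29.8 TPM in the IgG1 tumors, 30.3, 11.2 and 26.7 in the anti-PD-1 tumors, 26.5, 45.7 and 52.1 in the DOX/IgG1 tumors, and 68.9, 57.8 and 54.8 in the DOX/anti-PD-1 tumors. All DOX/anti-PD-1 tumors lay above all others. Rnf31 averaged 1.02 ± 0.25 higher (limma adjusted p = 0.208). Casp8, the initiator caspase of death receptors, averaged 0.58 ± 0.18 (limma adjusted p = 0.272) and Tab1, a partner of the kinase TAK1, 0.70 ± 0.23 (limma adjusted p = 0.282). Every tumor with doxorubicin had more Casp8 (39.3 to 50.4 TPM) than every tumor without it except IgG1 replicate 3 (42.1 TPM).

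Of 14 IKK and NF-kB subunits, 13 were higher and 1 lower on average, with a median of 0.26 against 0.12 over all genes. limma called 0, and 3 had an unadjusted p below 0.05, all higher, beside 8.69% of all genes. This count was 1 after scaling (11.5% of all genes in either direction) and 2 to 5 with a tumor left out (9.25% to 15.4%). They were Ikbke (0.88 ± 0.31, limma adjusted p = 0.309), Relb, the subunit of the alternative pathway (0.66 ± 0.26, limma adjusted p = 0.35), and Rela, that of the classical pathway (0.50 ± 0.20, limma adjusted p = 0.356). Among 26 tested genes that TNF induces through NF-kB, 22 were higher and 4 lower, with a median of 0.25, and limma called 0. At an unadjusted p below 0.05 were 5, all higher, beside 8.69% of all genes, or 3 without IgG1 replicate 2 (10.2% in either direction). Ptges, the prostaglandin E synthase, gave the smallest p, with 10.2, 4.90 and 11.2 TPM in the IgG1 tumors, 3.95, 7.67 and 9.93 in the anti-PD-1 tumors, 32.4, 15.3 and 15.7 in the DOX/IgG1 tumors, and 19.1, 23.3 and 18.1 in the DOX/anti-PD-1 tumors. Every tumor with doxorubicin exceeded every tumor without it. Ptges averaged 1.30 ± 0.29 higher (limma adjusted p = 0.18) and Vcam1, an adhesion molecule of endothelium, 0.63 ± 0.25 (limma adjusted p = 0.348). Mmp9, a matrix protease, was 3.29, 0 and 0 TPM with IgG1, 0, 0 and 0 with anti-PD-1, 8.42, 4.42 and 2.5 with DOX/IgG1, and 0, 1.46 and 4.19 with DOX/anti-PD-1. It was listed at 0 in 5 of the 6 tumors without doxorubicin, so no fold is given. Relb, Nfkb2, Nfkbia, Tnfaip3, Birc3 and Traf1 stand in more than 1 of these lists.

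The p53 targets include Fas and Tnfrsf10b of the family and Eda2r among its relatives. On average with doxorubicin 15 of 20 were higher, with a median of 0.35, limma called 0, and 8 had an unadjusted p below 0.05, all higher, beside 8.69% of all genes. The count was 5 without DOX/anti-PD-1 replicate 3, beside 9.64% of all genes in either direction. Phlda3, an inhibitor of AKT, read 12.2, 11.8 and 13.3 TPM in the IgG1 tumors, 9.22, 8.86 and 8.37 in the anti-PD-1 tumors, 32.0, 27.2 and 17.9 in the DOX/IgG1 tumors, and 22.4, 11.9 and 42.7 in the DOX/anti-PD-1 tumors. All tumors with doxorubicin but DOX/anti-PD-1 replicate 2 exceeded all tumors without. Phlda3 averaged 1.11 ± 0.28 higher (limma adjusted p = 0.208), Cdkn1a, the cell cycle inhibitor p21, 1.19 ± 0.36 (limma adjusted p = 0.25) and Zmat3, an RNA-binding p53 target, 0.96 ± 0.29 (limma adjusted p = 0.253). Of the 2 family members in this list, Fas averaged -0.23 ± 0.29 and Tnfrsf10b 0.04 ± 0.28, and neither had an unadjusted p below 0.05. In DOX/IgG1 against IgG1, 9 of 19 p53 targets had an unadjusted p below 0.05, all higher, beside 5.03% of all genes, with Ccng1 the smallest at 1.33 ± 0.26 (limma adjusted p = 0.432). In DOX/anti-PD-1 against anti-PD-1 it was 1 higher (6.3% of all genes) and 1 lower (2.33%). These 2 became 4 without DOX/anti-PD-1 replicate 2 (9.87% of all genes in either direction) or with replicate number as a block (8.55%). Set side by side, the median was 0.73 in the IgG1 arm and 0.20 in the anti-PD-1 arm.

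RANK ligand is induced by progesterone, so genes of the progesterone and prolactin axis were looked at too. Of 10 tested, limma called 0 on average with doxorubicin, and 7 were higher and 3 lower. At an unadjusted p below 0.05 there were 0 (11.9% of all genes in either direction), or 5 without DOX/IgG1 replicate 1 (15.4%). Elf5, a luminal transcription factor, gave the smallest p at -0.36 ± 0.20 (limma adjusted p = 0.516), followed by Pgr, the progesterone receptor, at 1.04 ± 0.64 (limma adjusted p = 0.544), and Areg, the growth factor amphiregulin, at -1.34 ± 0.87 (limma adjusted p = 0.574). Pgr was 19.6, 21.9 and 51.0 TPM with IgG1, 16.1, 6.44 and 11.02 with anti-PD-1, 9.20, 103 and 176 with DOX/IgG1, and 14.0, 12.1 and 77.1 with DOX/anti-PD-1. DOX/IgG1 replicates 2 and 3 were highest and replicate 1 among the lowest.

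**Figure D5:**
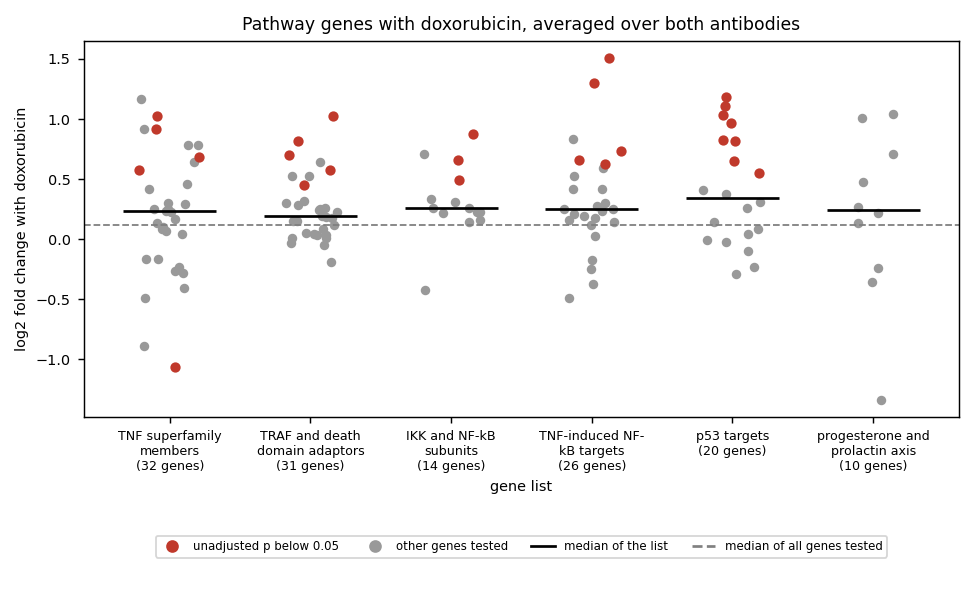
Log2 fold change with doxorubicin, averaged over both antibodies (y axis), of each tested gene (points) in 6 lists, with black bars at the list medians and a dashed line at the median of all genes tested. Red points had an unadjusted p below 0.05; no gene in these lists passed the adjusted limit.

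Markers of other cell types are given as sums over whole lists, and their part in the values above was not tested. T cell markers (12 genes, most abundant Cd3e) summed to 27.3, 33.4 and 12.2 TPM in the IgG1 tumors, 11.5, 24.2 and 13.2 in the anti-PD-1 tumors, 17.8, 66.9 and 55.8 in the DOX/IgG1 tumors, and 26.8, 31.4 and 42.4 in the DOX/anti-PD-1 tumors. NK cell markers (9 genes, most abundant Klrd1) summed to 23.4, 13.6 and 9.22 TPM in the IgG1 tumors, 10.5, 18.3 and 24.6 in the anti-PD-1 tumors, 9.96, 57.2 and 54.3 in the DOX/IgG1 tumors, and 16.7, 32.8 and 16.4 in the DOX/anti-PD-1 tumors. Both were highest in DOX/IgG1 replicates 2 and 3. In DOX/IgG1 against IgG1 limma called 0 of 10 T cell markers tested and 2 were higher at an unadjusted p below 0.05, as was 1 of 6 NK cell markers, beside 5.03% of all genes.

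Salivary gland markers were high in DOX/IgG1. The 8 of 9 markers listed, led by Amy1, summed to 6.41, 20.0 and 11.1 TPM in the IgG1 tumors, 30.9, 5.40 and 34.3 in the anti-PD-1 tumors, 60.1, 105 and 139 in the DOX/IgG1 tumors, and 22.7, 16.02 and 23.3 in the DOX/anti-PD-1 tumors. Bpifa2 was listed at 0 in the 9 tumors of the other groups and at 14.4, 21.3 and 53.7 TPM in DOX/IgG1. Smr3a read 16.6, 10.2 and 14.8 TPM in DOX/IgG1 and was at 0 in the others but for 2.76 TPM in anti-PD-1 replicate 3. limma called both in DOX/IgG1 against IgG1 (adjusted p = 0.033 for each), where all 3 tumors exceeded all 3. With any of the 3 IgG1 tumors or DOX/IgG1 replicate 3 left out, 0 genes were called in this comparison, so both calls were lost there. Bpifa2 was also called in the average of both arms (limma adjusted p = 0.045), where 0 genes were called without IgG1 replicate 2 or without anti-PD-1 replicate 1. Of the members, Cd27, Tnfrsf25 and Tnfrsf13c were higher in every DOX/IgG1 tumor than in every IgG1 tumor, beside 9.31% of all genes. The part of salivary tissue in their values was not tested.

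Lymph node markers (7 genes, most abundant Ccl21a) summed to 0.39 TPM in DOX/IgG1 replicate 1 and 42.6 TPM in IgG1 replicate 3, with 3.25 to 20.9 TPM in the other 10 tumors. Plasma cell markers (5 of 6 listed, most abundant Prdm1) summed to 12.5 to 36.3 TPM, dendritic cell markers (7, Zbtb46) to 8.90 to 36.7 TPM and macrophage markers (10, C1qa) to 278 to 474 TPM. Neutrophil markers (8, S100a8) summed to 1.48 to 14.5 TPM, with Ly6g and Camp at 0 in all tumors. Endothelial markers (7, Pecam1) summed to 85.9 to 163 TPM and skeletal muscle markers (8, Acta1) to 0.54 to 899 TPM.

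Luminal epithelial markers (8 genes, most abundant Epcam) summed to 3911, 2753 and 3365 TPM in the IgG1 tumors, 3042, 2386 and 2596 in the anti-PD-1 tumors, 2284, 3406 and 3932 in the DOX/IgG1 tumors, and 3324, 3045 and 2408 in the DOX/anti-PD-1 tumors, and the groups overlapped. In DOX/IgG1 against IgG1 limma called 0 of the 8, 6 were lower and 2 higher, and 2 of the lower ones had an unadjusted p below 0.05, beside 2.7% of all genes. Basal epithelial markers (7, Acta2), fibroblast markers (8, Col1a1) and adipocyte markers (8, Cfd) were all higher in DOX/anti-PD-1 tumors than with anti-PD-1 alone. Adipocyte markers summed to 103, 352 and 262 TPM in the IgG1 tumors, 153, 112 and 177 in the anti-PD-1 tumors, 184, 899 and 140 in the DOX/IgG1 tumors, and 840, 306 and 245 in the DOX/anti-PD-1 tumors. In that comparison limma called 0 genes of these lists, with 6 of 8 adipocyte, 4 of 8 fibroblast and 3 of 7 basal markers higher at an unadjusted p below 0.05, beside 6.3% of all genes. So were 2 of 8 luminal, 2 of 4 dendritic cell and 1 of 7 endothelial markers. In the same comparison Tnfrsf1a and Tnfrsf21 were higher without overlap, beside 11.1% of all genes. The part of these cell types in their values was not tested.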

How the data were processed

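The authors made the libraries with the SMARTer Stranded Total RNA HI kit from snap-frozen whole tumors, sequenced them single-end on a NextSeq 500, trimmed with skewer, aligned to mm10 with STAR and quantified with RSEM. The deposited files hold 1 tumor each as log2(TPM + 1) with decimal commas. Turned back to TPM, all values lie within 0.000025 TPM of a multiple of 0.01 and were rounded to it, and they sum to 609418 to 725506 per tumor over 21960 genes. Where a symbol occurs more than once, the first entry was used.

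Each comparison was tested with limma 3.58.1 (linear model and empirical Bayes with a mean-variance trend) in R 4.3.3 on log2(TPM + 1), with 2 groups per pairwise fit and all 12 tumors for averages and the interaction. Genes with at least 1 TPM in at least 3 tumors of the fit were tested. A gene was called at a Benjamini-Hochberg adjusted p below 0.1 over all genes tested and an absolute log2 fold change above 1. Permutation p values are exact and two-sided, within arms for averages, and are not adjusted for the number of genes. The pipeline was tested on simulated data with known folds. The alternatives tried were no minimum, a stricter minimum of a mean of 5 TPM, a pseudocount of 0.1, median-of-ratios scaling, all tumors in a single fit, a replicate block, no mean-variance trend, and leaving out each tumor.

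Members with an unadjusted p below 0.05 in any comparison, the 2 most abundant of each role, and the ligands and receptors of 16 pairs are given per tumor. Of each pathway list, genes that were called are named, or else the 3 with the smallest p in the average with doxorubicin. The members, roles, pairs and lists were chosen with earlier results of these data known.

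Limits: each group holds 3 tumors, so the smallest exact p of a pairwise comparison is 0.1. TPM without counts leave depth and counting noise unknown, and a gene listed at 0 may be present below detection. Close paralogs and overlapping genes share reads. Whole tumors mix cell types, and the RNA level of a ligand or receptor says nothing about protein on the surface or shed from it. Doxorubicin cannot be told apart from start size, first antibody dose and schedule.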

Additional observations from a re-analysis of the deposited data

How the results depend on the processing

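All 106 counts of called members under the alternatives were 0, as in the primary analysis. So few of all genes were called in these settings that 0 members is not a result about the family. Of 333 member folds under the alternatives, 330 kept their direction. The 3 that reversed were Cd27 in DOX/anti-PD-1 against anti-PD-1 (-0.52, from -1.16 without anti-PD-1 replicate 2 to 0.068 without anti-PD-1 replicate 3) and Tnfsf12 in the same comparison (0.17, from 0.61 without DOX/anti-PD-1 replicate 1 to -0.24 without DOX/anti-PD-1 replicate 2, and -0.041 without anti-PD-1 replicate 1). Leaving out single tumors gave 0.55 to 0.85 for Tnfrsf21, 0.42 to 0.72 for Tnfrsf1a, 0.84 to 1.35 for Tnfrsf25, 0.73 to 1.15 for Tnfrsf22 and -1.37 to -0.58 for Tnfrsf18 on average with doxorubicin. Members with an unadjusted p below 0.05 in that average numbered 4 to 6 across the settings and 3 to 8 with a tumor left out, against 5. The share of all genes at that limit was 10.8% to 12.5% across the settings and 9.25% to 15.4% with a tumor left out, against 11.9%. With the replicate number as a block, 0 members were called in any comparison and 9 genes were called in that average, against 13. Without DOX/IgG1 replicate 1, 301 of 14735 genes were called in that average and 122 of 13874 in DOX/IgG1 against IgG1 (against 5). The members called were 0 there too, which at such small shares of all genes says little. Both counts of genes also fell to 0, in the average without IgG1 replicate 2 or anti-PD-1 replicate 1, and in DOX/IgG1 against IgG1 without any 1 of the IgG1 tumors or without DOX/IgG1 replicate 3. With a pseudocount of 0.1 the average was 2.13 for Tnfrsf25 and -1.64 for Tnfrsf18. Same-number tumors of different groups correlated at -0.096 to 0.134 over residuals. Of 18 such pairs, 4 were above 0.1, against 3 of 36 pairs with different numbers. Although 8 of 12 tumors correlated best with a tumor of their own number, pairing was not assumed, and these small correlations do not settle it.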
